A study of Taeniopygia guttata with 46 samples.

Results

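The genes described here were the 150 whose transcript levels varied most alike in the telencephalon and the testis of the same bird. They were taken from 18618 genes listed by Ensembl identifier. Levels were expressed as CPM, a gene's count for every 1000000 counts of its library. Of the 18618 genes, 8528 had a mean of at least 5 CPM in each tissue, and 6718 of these, called eligible genes below, also had tissue means within 4-fold of each other. For each eligible gene the log2(CPM + 0.5) value of a bird was taken as its deviation from the mean of its tissue and temperature group. Pearson's r between the telencephalon and testis deviations was then computed over the 22 birds with both tissues. The members are the 150 genes with the highest r. They were thus chosen by r, which is given as a description, without a test.

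The birds were adult male zebra finches (Taeniopygia guttata), a songbird in which the forebrain controls courtship song and the testis makes sperm and androgens. Each spent 5 h in air at 35 °C, within the thermoneutral zone per the labels, or at 27 °C, below it, or 43 °C, above it. This zone spans the temperatures at which a resting animal keeps warm or cool without extra energy. The telencephalon is the large anterior part of the brain. Its posterior part was sampled, per the name given to the counts, and is called the telencephalon here. It came from 8 birds at each temperature, while testis samples numbered 7 for 27 °C, 8 for 35 °C and 7 for 43 °C. Birds T138 (43 °C) and T143 (27 °C), of the 24 in all, had the telencephalon only. They entered the mean telencephalon CPM that decided which genes were eligible, but not r.

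As background, the tissues of an animal carry the same inherited DNA, and a variant near a gene, such as a deletion, a duplication or a change in a promoter, can shift that gene's transcript level in many tissues at once. Hormones and other signals in the blood also reach every tissue, as do blood cells. Temperature acts on the whole bird and could shift a gene in both tissues, but the mean of each temperature group had been removed before r was computed. Which of these bears on the genes below was not tested.

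The identifiers are not paired with gene symbols in the tables used here, so no function, pathway, cell type marker or sequence is given for any member. Without markers the tissues were checked by whole profiles only. Across these eligible genes, each telencephalon library correlated at r of at least 0.984 with the mean of the other telencephalon libraries. With the testis mean it correlated at no more than 0.801. Each testis library correlated at no less than 0.971 with its own tissue and no more than 0.807 with the other. The testis sample of T142 (27 °C), whose tissue characteristic reads brain while its title says testis, had the lowest value with its own tissue, 0.971, beside 0.799 with the telencephalon mean, and was kept as testis. Library totals lay between 10201598 and 16862943 counts for the telencephalon and between 14232073 and 25440619 for the testis. In whole-tissue RNA, fewer cells of a type and less RNA per cell cannot be told apart.

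Members had r from 0.713 to 0.962 with a median of 0.763. Over all eligible genes the median was 0.163, the range ran from −0.785 to 0.962, and 72.0% of genes lay above 0. The members thus formed the upper end of a distribution without a break at the threshold. Just inside it lay ENSTGUG00000016447 (r = 0.714), ENSTGUG00000000742 (0.713) and ENSTGUG00000012452 (0.713), and just outside it ENSTGUG00000007759 (0.712), ENSTGUG00000014772 (0.712) and ENSTGUG00000016472 (0.710).

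**Figure D1:**
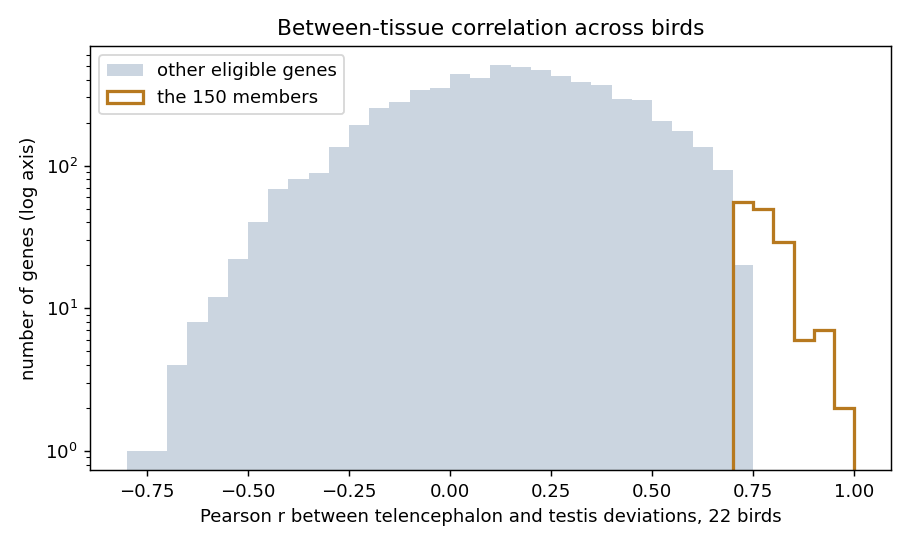
Number of eligible genes (log axis) by Pearson's r between the telencephalon and testis deviations of 22 birds, with the 150 members as an outline and the other eligible genes as filled bars. The bulk lies around the median of 0.163, and the members occupy the right end from 0.713 to 0.962.

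The leading gene, ENSTGUG00000013784, had r = 0.962 and low levels in both tissues, with means of 6.89 CPM in the telencephalon and 9.30 CPM in the testis. In 6 of the 22 birds it was close to 0. Birds T137, T140, T142, T145, T153 and T158 had 0.191 to 0.904 CPM in the telencephalon, which is 2 to 11 counts, and 0.536 to 1.98 CPM in the testis. A further 9 birds had 5.14 to 7.63 CPM in the telencephalon and 4.15 to 10.6 CPM in the testis. The remaining 7 birds, T135, T146, T147, T148, T154, T155 and T159, had 11.2 to 15.1 CPM in the telencephalon and 12.2 to 22.4 CPM in the testis.

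These 3 ranges did not overlap in either tissue, and each bird fell in the same range in both. In the testis the middle and high ranges nearly met, at 10.6 CPM in T136 and 12.2 CPM in T135. Inside the middle range T149 at 4.15 CPM and T141 at 5.65 CPM lay further apart on a log scale. The ranges were drawn after the values were seen and are no groups of the study, so their match between tissues is a description only. In log2(CPM + 0.5) units, the low birds lay below the next bird by a gap of 2.01 in the telencephalon and of 0.91 in the testis. All 3 temperatures were represented in each range. By temperature (27, 35 and 43 °C) the low range held 2, 3 and 1 birds and the high range 3, 3 and 1. Of the birds left out of r, T143 had 7.14 CPM in the telencephalon, inside the middle range, and T138 had 8.15 CPM, between the middle and high ranges.

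**Figure D2:**
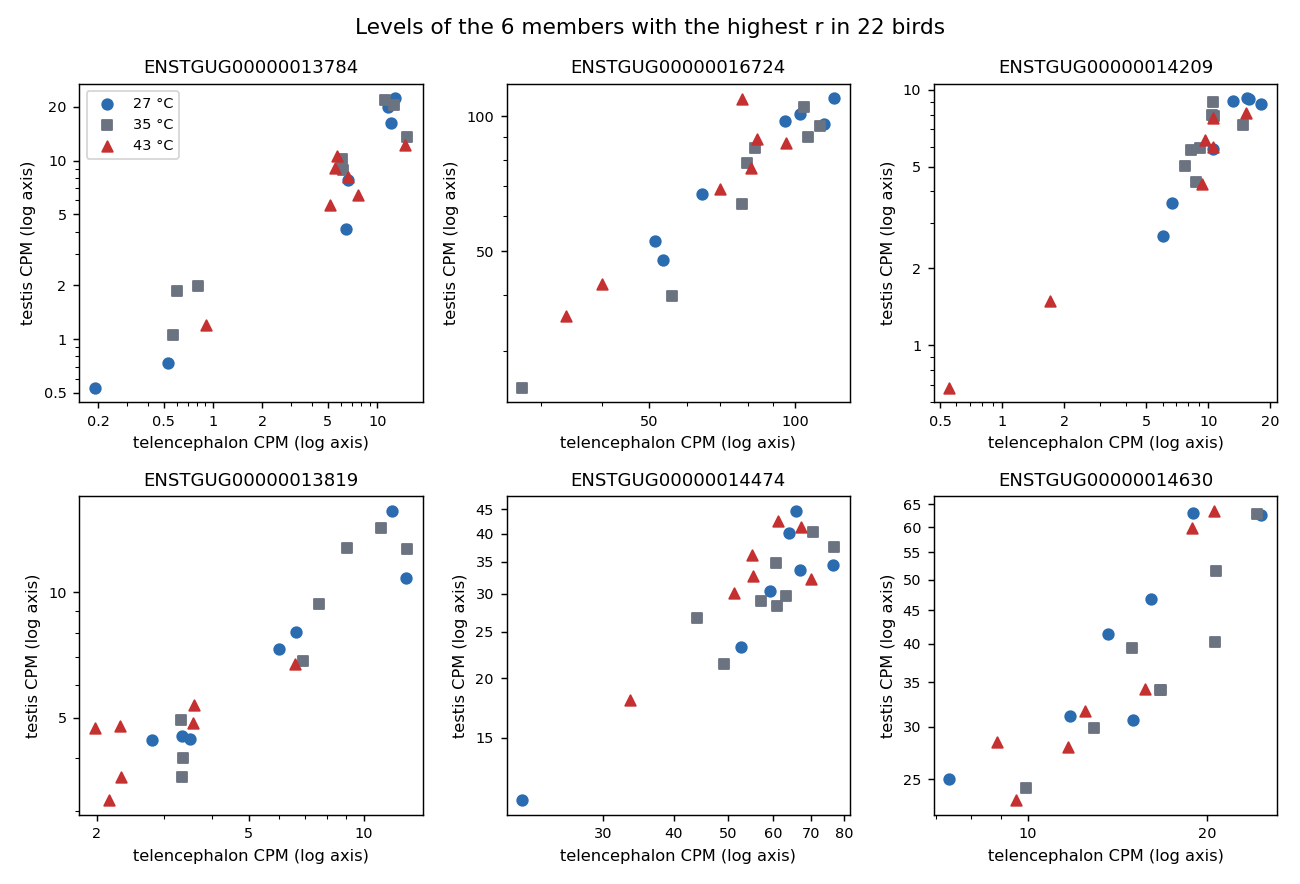
CPM in the testis against CPM in the telencephalon (both log axes) for the 6 members with the highest r, each point a bird with both tissues and its colour and shape the air temperature. In ENSTGUG00000013784 6 birds below 2 CPM in both tissues lie apart from the other birds. In ENSTGUG00000016724 the points spread along a line from 27.5 to 120 CPM in the telencephalon.

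ENSTGUG00000016724 followed with r = 0.960 and a different distribution. Its telencephalon levels were 27.5 CPM at the lowest, 80.4 at the median and 120 at the highest of the 22 birds, and its testis levels were 24.9, 81.7 and 110 CPM. The mean levels of both tissues were nearly equal, at 79.0 CPM in the telencephalon and 75.6 CPM in the testis, as were the SDs of the deviations, at 0.59 and 0.61 log2 units. With at least 2 birds on each side, its widest gap between neighbouring birds was 0.35 log2 units in the telencephalon and 0.27 in the testis. T158 (35 °C) was the lowest bird in both tissues, and in the testis it lay apart at 24.9 CPM, below T152 at 35.8 CPM.

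ENSTGUG00000014209 (r = 0.948) was low in 2 birds. T141 and T156 had 0.555 to 1.71 CPM in the telencephalon, against 6.05 to 18.1 CPM in the other 20 birds, and 0.681 to 1.48 CPM in the testis, against 2.66 to 9.29 CPM. The same birds were thus the lowest in both tissues, with no overlap with the others. Both had been held at 43 °C, where the other birds of the group reached 15.2 CPM in the telencephalon. T138, also at 43 °C, had 4.11 CPM, between both sides.

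ENSTGUG00000013819 (r = 0.926) had 1.98 to 3.60 CPM in the telencephalon of 12 birds and 6.01 to 13.0 CPM in the other 10. The same 12 birds were the lower ones in the testis, with 3.17 to 5.38 CPM against 6.72 to 15.7 CPM. T156 was the only bird at 43 °C on the higher side, while 4 birds at 27 °C and 5 at 35 °C were there. ENSTGUG00000014474 (r = 0.909) showed a narrow band with 2 low birds. T159 (27 °C) had 21.6 CPM and T144 (43 °C) 33.4 CPM in the telencephalon, where the other 20 birds had 44.1 to 76.9 CPM. In the testis they had 11.1 and 17.99 CPM, and the others 21.4 to 44.7 CPM.

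By the criterion given further on, ENSTGUG00000013784 and ENSTGUG00000014209 were split in the telencephalon only. ENSTGUG00000016724, ENSTGUG00000013819 and ENSTGUG00000014474 were split in neither tissue. The next 5 genes by r had no such split either, although single birds lay apart in some. ENSTGUG00000014630 (r = 0.905) ranged from 7.37 to 24.7 CPM in the telencephalon and from 23.2 to 63.5 CPM in the testis. ENSTGUG00000016158 (0.904) ranged from 5.83 to 39.6 and from 7.39 to 42.4 CPM, with T137 the highest bird in both tissues; in the telencephalon the next bird, T149, had 20.98 CPM. ENSTGUG00000013987 (0.903) ranged from 1.04 CPM in T156, with T141 next at 3.56 CPM, to 20.8 CPM in the telencephalon, and from 4.14 to 30.6 CPM in the testis. This last range was wide at 43 °C, where the lowest and the highest bird of both tissues were found. ENSTGUG00000000313 (0.901) was higher in the testis, at 47.2 to 214 CPM against 29.97 to 77.0 CPM in the telencephalon. ENSTGUG00000008828 (0.884) had its highest telencephalon level, 119 CPM, and its highest testis level, 61.6 CPM, in the same bird, T159 at 27 °C.

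Among all 150 members, the number of birds on the same side of their group mean in both tissues ran from 13 to 22 of 22, with a median of 17. The same bird was the lowest in both tissues in 47 members (31.3%, against 9.38% of the eligible genes) and the highest in both in 62 (41.3%, against 9.04%). These shares restate the choice by r and support nothing beyond it. The bird whose removal lowered a member's r most was T159 for 14 members, and every other bird held this place for 2 to 11 members.

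**Figure D3:**
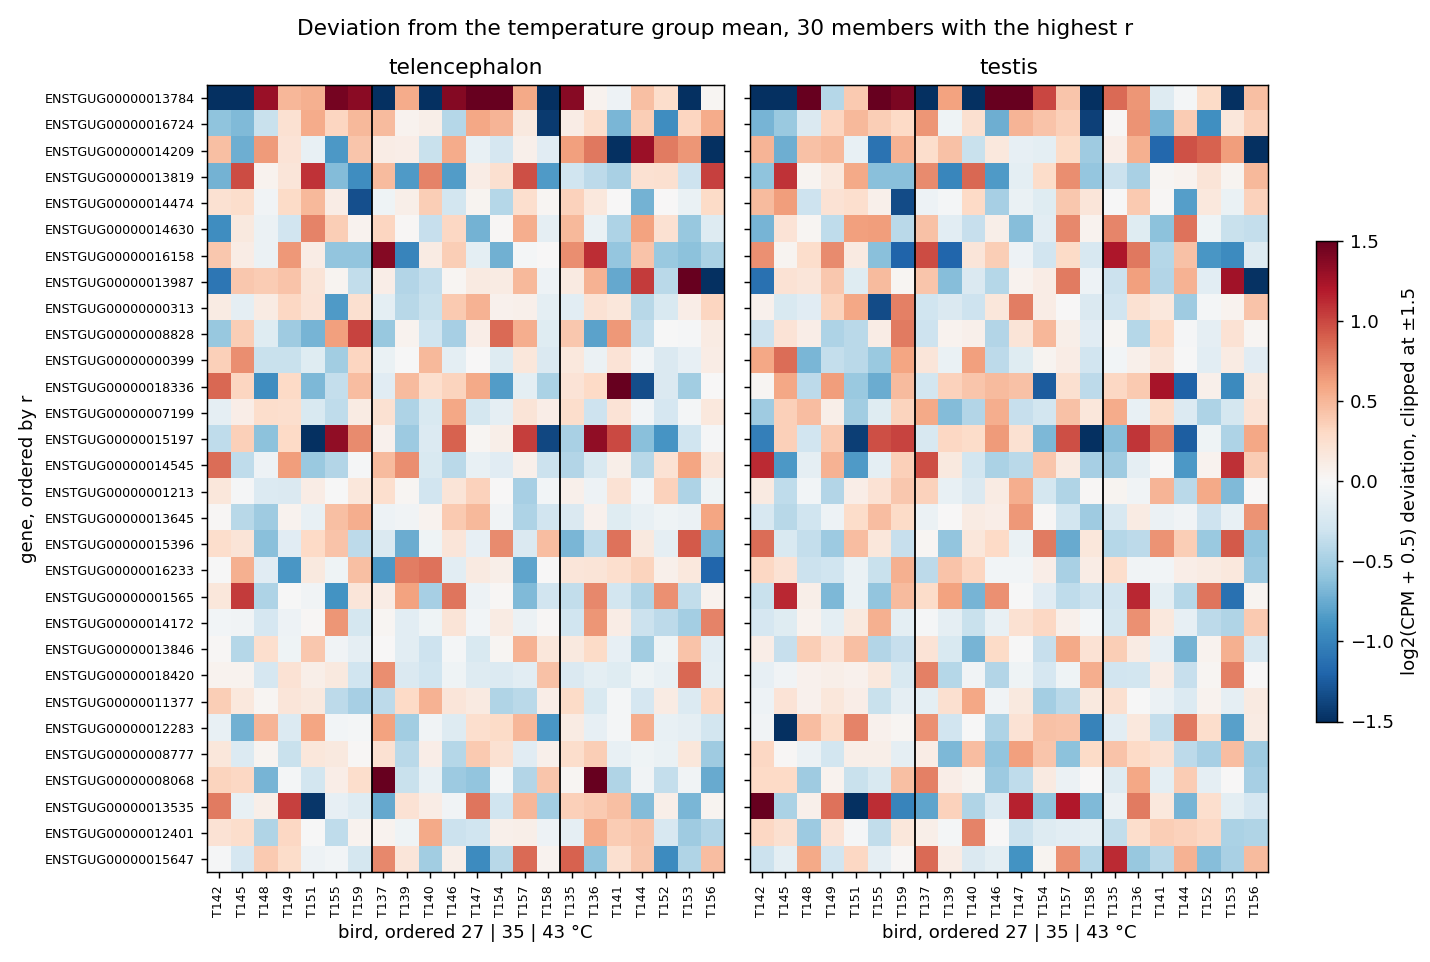
Deviation of each bird from its temperature group mean, in log2(CPM + 0.5) units clipped at 1.5 in either direction, for the 30 members with the highest r (rows) in the telencephalon (left) and testis (right), with birds in the same order in both panels. Each row shows a like pattern of high (red) and low (blue) birds in both panels, and the pattern differs from row to row.

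The relation between tissues held in each temperature group taken alone for most members, again as a description of the values that chose them. The median r was 0.815 over the 7 birds at 27 °C, 0.775 over the 8 at 35 °C and 0.820 over the 7 at 43 °C. An r above 0.5 was found in 92.7%, 88.7% and 89.3% of members at 27, 35 and 43 °C, against 26.8%, 21.3% and 23.3% of eligible genes. It was found at all 3 temperatures in 106 members (70.7%), against 216 of the 6718 eligible genes (3.22%). ENSTGUG00000010327 had the lowest value in any group, with r = −0.51 at 27 °C beside 0.953 at 35 °C and 0.868 at 43 °C.

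Some members rested on 1 bird. Leaving out the bird that mattered most gave r of at least 0.7 in 85 members and under 0.5 in 2, with a median of 0.711. The lowest remaining r was in ENSTGUG00000016137, which went from 0.730 to 0.417 without T135. That bird's telencephalon level was 8.82 CPM, the lowest of the 22, where the median was 27.1 and the highest 34.6 CPM. ENSTGUG00000009661 fell below 0.5 too, from 0.817 to 0.475 without T144. Rank correlation, which gives such birds less weight, had a median of 0.746 over the members and ranged from 0.464 to 0.936.

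Each testis sample came with a paired-end and a single-end column, which were summed. With the paired-end column alone the members' median r with the telencephalon was 0.762, and with the single-end column alone 0.758. Between these columns the members' deviations correlated at a median r of 0.933, close to the 0.919 of all eligible genes. The lowest was 0.415 in ENSTGUG00000016821, a member with a mean of 11.8 CPM in the testis.

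The members varied more between birds than eligible genes did. The SD of the deviations had a median of 0.29 log2 units in the telencephalon, against 0.16 over eligible genes, and of 0.37 in the testis, against 0.26. The highest bird was at least 2-fold above the lowest in the telencephalon in 88 members (58.7%, against 17.2% of eligible genes) and in the testis in 125 (83.3%, against 51.4%). A range of at least 4-fold was found in 22 members in the telencephalon (14.7%, against 1.62%) and in 28 in the testis (18.7%, against 5.95%). A gene with little spread beyond counting error cannot reach a high r, so a larger spread follows in part from the choice.

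Counting error was a small part of this spread in most members. The variance that counting alone would give was a median of 6.33% of the members' variance in the telencephalon, against 16.2% over eligible genes. In the testis it was 2.87% against 3.91%. The members were nonetheless not the most abundant genes. Their mean level had a median of 27.0 CPM in the telencephalon and 27.1 CPM in the testis, where the eligible genes had 40.3 and 38.8 CPM.

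The testis was the more variable tissue in 108 members (72%), a smaller share than the 88.3% among eligible genes. The SDs are of the deviations that chose the members, so this share and the ratio below may follow in part from the choice. The ratio of the testis SD to the telencephalon SD had a median of 1.28 in the members and 1.66 in eligible genes. At its lower end stood ENSTGUG00000008610 with 0.467, and at its upper end ENSTGUG00000003019 with 5.67. In the latter the telencephalon was nearly constant at 17.95 to 24.7 CPM, while the testis held 16 birds at 27.1 to 47.0 CPM and 6 birds at 71.4 to 99.0 CPM. The order of the birds was not the same in both tissues: T145 had the highest testis level, 99.0 CPM, but 20.6 CPM in the telencephalon, at about the median.

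**Figure D4:**
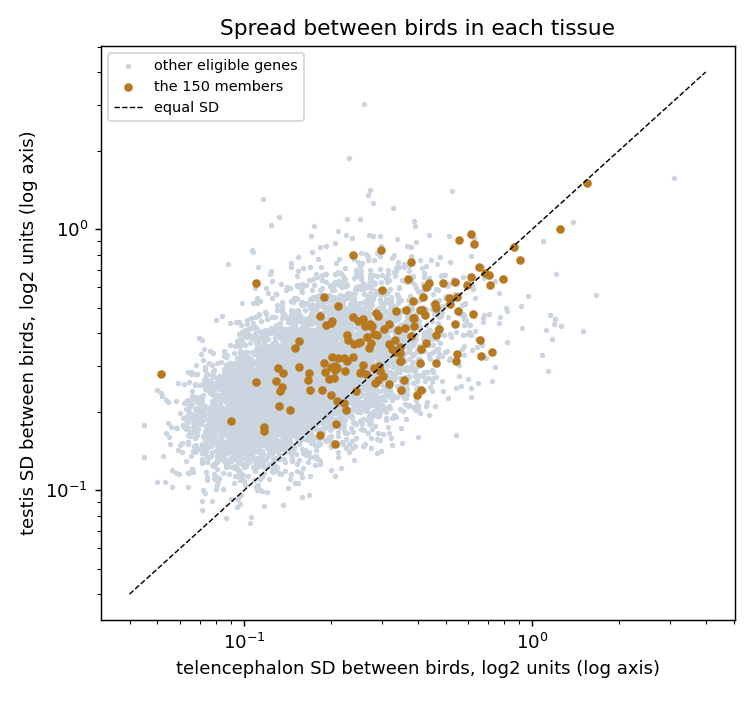
SD of the deviations between 22 birds in the testis against that in the telencephalon, in log2 units (both log axes), for the 150 members and the other eligible genes, with a dashed line of equal SD. Most members lie above the line, in the right part of the cloud, and ENSTGUG00000013784 is the member furthest to the upper right at 1.547 and 1.502.

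After the leading gene, the widest spread averaged over both tissues was that of ENSTGUG00000009626, with SDs of 1.247 and 1.005 log2 units. Its telencephalon levels had a median of 6.62 CPM, but T141, T155 and T151 reached 45.3, 42.5 and 40.1 CPM. Those birds had 22.9, 20.5 and 26.8 CPM in the testis, where the median was 9.44 CPM. T152 did not share the pattern, with 24.97 CPM in the testis and 9.37 CPM in the telencephalon. ENSTGUG00000015197 followed, with SDs of 0.87 and 0.86. Its highest bird in both tissues was T136, at 128 CPM in the telencephalon and 53.3 CPM in the testis, and T151 and T158 were the lowest in both. ENSTGUG00000013535 had SDs of 0.61 and 0.96.

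Levels that fall on both sides of an empty stretch were searched for by a fixed criterion. A gene was said to have split levels in a tissue when the widest gap between neighbouring birds, with at least 2 birds on each side, was at least 0.5 log2(CPM + 0.5) units and at least 2 times the pooled SD within the sides. In the telencephalon 6 members met it (4%, against 0.327% of eligible genes), and in the testis 3 did (2%, against 0.655%). No member met it in both tissues, nor did any of the 6718 eligible genes. A wide spread makes a wide gap more likely, so the higher shares are not independent of the larger spread given above.

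The widest gap, whatever its size, left the same birds on the low side in both tissues in 15 members (10%, against 0.402% of eligible genes). A high r favours the same birds being low in both tissues, so this share and those below follow in part from the choice. With the requirement eased to 1.2 pooled SDs, a value chosen after the data were seen, ENSTGUG00000013784 and ENSTGUG00000014209 met the criterion in both tissues with the same birds low, and they were the 2 such genes (1.33% of members) among all 6718 (0.0298%). The other split members, like these chosen for description after their values were seen, were split in 1 tissue only.

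ENSTGUG00000008610 (r = 0.751) had the sharpest split in the telencephalon, a gap of 1.81 log2 units and 7.14 pooled SDs. T135 and T144 had 3.30 and 3.58 CPM there, and the other 20 birds 13.8 to 27.3 CPM. The same pair was the lowest in the testis, at 25.7 and 20.5 CPM against 30.8 to 58.0 CPM. Both low birds were held at 43 °C. The same birds were thus low in both tissues, by less in the testis.

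ENSTGUG00000016233 (r = 0.845) had 6.94 to 9.72 CPM in the telencephalon of T137, T149, T156 and T157 and 15.05 to 29.9 CPM in the others. Of the birds left out of r, T138 had 6.95 CPM, on the low side, and T143 had 23.9 CPM, on the high side. In ENSTGUG00000012205 (0.727) the higher side was the smaller one. T141, T145, T154, T155 and T159 had 69.6 to 121 CPM in the telencephalon, while the other 17 birds lay within 38.3 to 48.6 CPM. T138 (46.2 CPM) and T143 (41.7 CPM) fell within that narrow band. In the testis T159, T145 and T154 were the highest birds, at 71.8, 55.2 and 47.1 CPM. T141 and T155 lay among the others there, at 40.5 and 36.3 CPM. In ENSTGUG00000008068 (0.835) T136 and T137 stood at 73.6 and 74.0 CPM above 13.5 to 33.6 CPM, and T138 had 39.7 CPM. T136 and T137 were also the highest in the testis, at 32.4 and 32.7 CPM, with T159 next at 30.6 CPM.

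In the testis, ENSTGUG00000008777 (r = 0.837) had 182 to 212 CPM in T139, T144, T146, T152, T156 and T157 and 307 to 504 CPM in the other 16 birds. None of the low birds was held at 27 °C, 3 were at 35 °C and 3 at 43 °C. ENSTGUG00000015223 (0.747) had 3.43 to 5.19 CPM in T135, T140, T141, T145 and T149 and 10.7 to 29.3 CPM in the rest. Those low birds were also the lowest in the telencephalon, at 8.11 to 9.55 CPM, but T158 came next at 9.87 CPM without a wide gap. ENSTGUG00000003019, described above, was the third. Across the split members the low or high birds differed from gene to gene, though T141 appeared on the smaller side in 4 of the 9 and T145 in 4.

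T138 and T143 gave a view of telencephalon levels in birds that had not entered r. T143 lay outside the range of the 22 birds in 9 members (6%, against 6.06% of eligible genes) and T138 in 14 (9.33%, against 15.8%). These shares are near or below the background. The testis of these birds was not analysed here, so their values say nothing about the relation between tissues.

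Few members varied with each other. Of the 11175 pairs of members, 1 had deviations correlated at r of at least 0.8 in both tissues (0.00895%, against 0.000749%, or 169 of 22562403 pairs of eligible genes). This pair was ENSTGUG00000001565 and ENSTGUG00000015809, with r = 0.964 in the telencephalon and 0.958 in the testis. T145 had the highest level of both genes in both tissues, at 134 and 26.9 CPM in the telencephalon and 53.7 and 11.8 CPM in the testis. Strand setting and handling of shared reads were not given in the notes used here. Overlapping or near-identical genes could therefore share reads, and whether this pair does is uncertain. Where both genes of a pair track between tissues, a correlation in either tissue tends to recur in the other. The higher share of member pairs thus follows in part from the choice by r.

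At r of at least 0.7, a threshold added after the data were seen, 5 pairs varied together in both tissues (0.0447% of member pairs, against 0.00679% of eligible pairs) and 4 varied oppositely (0.0358%, against 0.000217%, or 49 of 22562403). ENSTGUG00000000399 varied with ENSTGUG00000000395 (0.853 in the telencephalon and 0.725 in the testis) and with ENSTGUG00000003795 (0.714 and 0.709). ENSTGUG00000007886 varied with ENSTGUG00000000328 (0.850 and 0.798). Among the opposite pairs were ENSTGUG00000018420 with ENSTGUG00000009025 (−0.848 and −0.719) and ENSTGUG00000016724 with ENSTGUG00000013555 (−0.763 and −0.815). The same doubt about shared reads applies to these pairs, and their higher shares likewise follow in part from the choice by r.

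Response to temperature was tested with edgeR's quasi-likelihood test over all genes of a tissue, with p-values adjusted by Benjamini and Hochberg's method over all genes tested. The birds are separate animals, so these p-values rest on the spread between birds. All 150 members were tested. The temperature group means had been removed before the members were chosen, so these comparisons did not enter the rule, although a large spread between birds did and widens the errors. At an adjusted p under 0.05, 0 members were called in the telencephalon between 43 and 35 °C (background 0.00754% of all genes tested), between 27 and 35 °C (0%) or between 43 and 27 °C (0.0226%). In the testis 0 members were called in any of these comparisons, where the background was 0% in each.

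At an unadjusted p under 0.05 in edgeR, the members' share was near or below that of all genes tested. In the telencephalon it was met by 9 members between 43 and 35 °C (6%, background 9.1%), 4 between 27 and 35 °C (2.67%, background 3.38%) and 15 between 43 and 27 °C (10%, background 10.9%). Of these 15 members, 3 were higher (2%, background 5.63%) and 12 lower (8%, background 5.28%) at 43 °C. In the testis the counts were 10 (6.67%, background 7.94%), 7 (4.67%, background 4.33%) and 8 (5.33%, background 6.17%). These shares give no result particular to the members. DESeq2 called 1 member in the telencephalon between 43 and 27 °C and none in the other comparisons within a tissue.

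The member called by DESeq2 was ENSTGUG00000008777. Its telencephalon levels at 27 °C were 137.3, 206 and 228 CPM (lowest, median, highest of 8 birds), at 35 °C 134.5, 193 and 238 CPM, and at 43 °C 93.2, 134.97 and 174 CPM. In the testis they were 335, 412 and 504 CPM at 27 °C, 200, 368 and 491 CPM at 35 °C and 182, 307 and 361 CPM at 43 °C. Birds at 43 °C were mostly the lower ones in both tissues, with overlap between the groups.

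The mean telencephalon level of ENSTGUG00000008777 was 138.2 ± 25.5 CPM at 43 °C and 196 ± 34.1 CPM at 27 °C (SD, n = 8 each). The fitted log2 fold change was −0.50 ± 0.13 (SE), with an adjusted p of 0.0451 in DESeq2 and of 0.185 in edgeR. In the testis the log2 fold change was −0.54 ± 0.21, with an adjusted p of 0.773 in edgeR. The birds on the low side of its testis split, described above, came from 35 and 43 °C, and their part in the difference was not tested.

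ENSTGUG00000013819 had the largest fitted fold change of any member between 43 and 35 °C in the telencephalon. Its levels there were 3.32, 7.29 and 13.0 CPM at 35 °C and 1.98, 2.87 and 6.60 CPM at 43 °C. In the testis they were 3.61, 8.10 and 14.3 CPM at 35 °C and 3.17, 4.78 and 6.72 CPM at 43 °C. The groups overlapped in both tissues, with the upper birds at 35 °C above all birds at 43 °C. The log2 fold change was −1.13 ± 0.36 in the telencephalon (edgeR adjusted p = 0.374) and −0.80 ± 0.31 in the testis (edgeR adjusted p = 0.566).

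**Figure D5:**
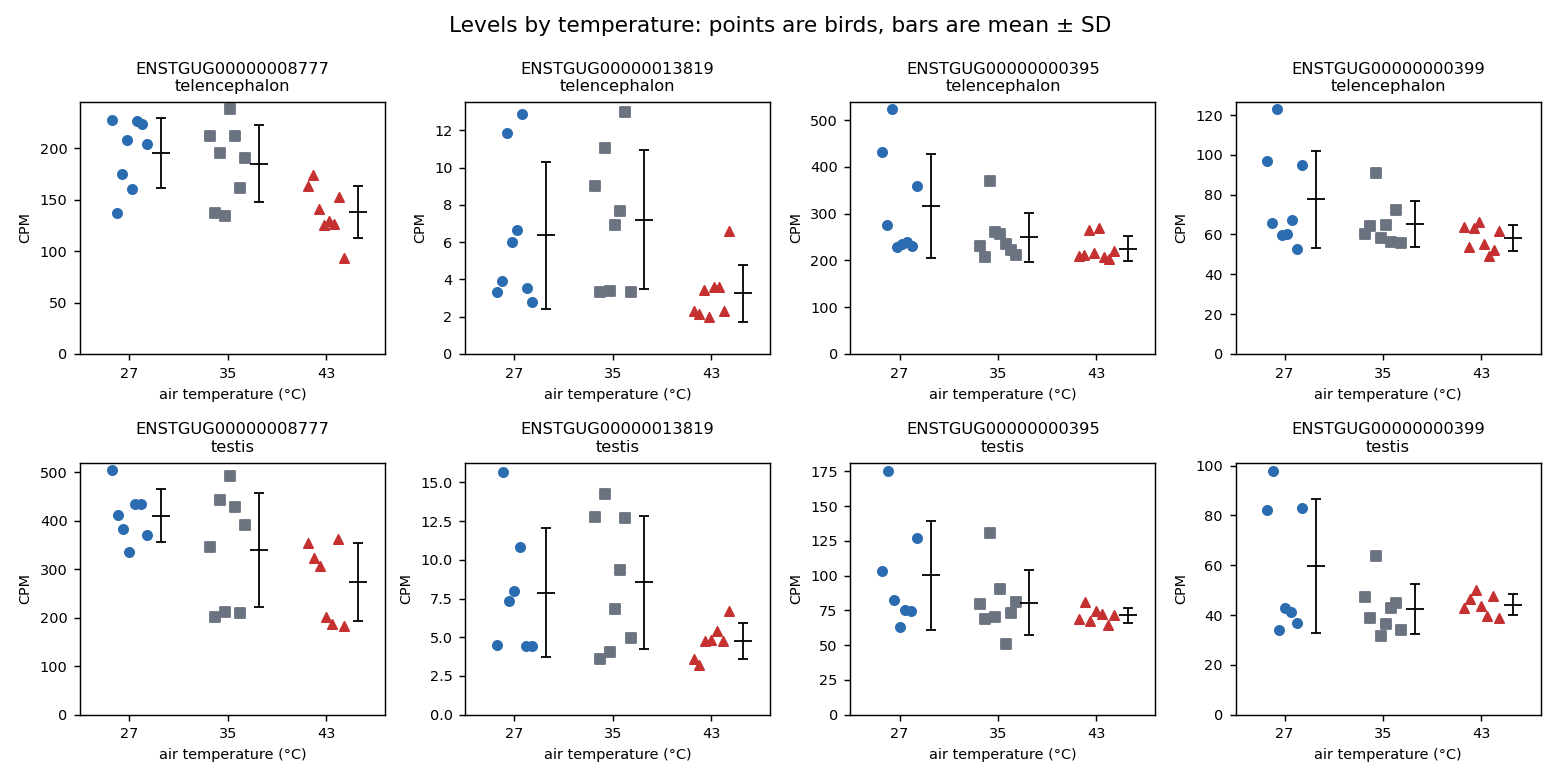
CPM by air temperature in °C for 4 members in the telencephalon (top) and testis (bottom), with a point for each bird and bars for the mean and SD of each group. ENSTGUG00000008777 and ENSTGUG00000013819 have lower means at 43 °C in both tissues with overlapping birds, and in ENSTGUG00000000395 and ENSTGUG00000000399 the 27 °C mean is raised by T142, T145 and T159.

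ENSTGUG00000000395 and ENSTGUG00000000399 had a few high birds. In the telencephalon the former had 431, 523 and 358 CPM in T142, T145 and T159 at 27 °C and 370 CPM in T140 at 35 °C, and no more than 276 CPM in any other bird. The latter had 97.0, 123, 94.8 and 90.8 CPM in the same birds and no more than 72.5 CPM elsewhere. Those 4 birds were also the highest for both genes in the testis. Between 43 and 27 °C the log2 fold change of ENSTGUG00000000395 was −0.48 ± 0.15 in the telencephalon (edgeR adjusted p = 0.264) and −0.43 ± 0.17 in the testis (edgeR adjusted p = 0.789). For ENSTGUG00000000399 it was −0.41 ± 0.14 (edgeR adjusted p = 0.285) and −0.37 ± 0.19 (edgeR adjusted p = 0.805).

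Other members with the smallest p in a comparison were not called either. ENSTGUG00000000120 averaged 24.4 ± 5.65 CPM in the testis at 43 °C and 38.3 ± 14.4 CPM at 27 °C (SD, n = 7 each), with a log2 fold change of −0.60 ± 0.21 (edgeR adjusted p = 0.754). In the telencephalon it had 74.5 ± 9.47 and 90.8 ± 15.2 CPM (SD, n = 8 each), with a log2 fold change of −0.28 ± 0.09 (edgeR adjusted p = 0.268). ENSTGUG00000004197 averaged 9.98 ± 2.61 CPM in the testis of the 7 birds at 43 °C and 16.2 ± 3.90 CPM in that of the 8 at 35 °C (SD), with a log2 fold change of −0.66 ± 0.23 (edgeR adjusted p = 0.560). ENSTGUG00000015145 was the other way, averaging 42.9 ± 11.5 CPM in the testis of the same birds at 43 °C and 31.4 ± 5.72 CPM in those at 35 °C (SD), and it was not called. Between 27 and 35 °C the members with the smallest p in the telencephalon were ENSTGUG00000012526 (log2 fold change −0.41), ENSTGUG00000016435 (0.28) and ENSTGUG00000000402 (0.19). In the testis they were ENSTGUG00000009358 (0.38), ENSTGUG00000003795 (0.38) and ENSTGUG00000000399 (0.47). None of these was called in that comparison.

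No temperature difference was called for the leading gene. The mean telencephalon level of ENSTGUG00000013784 was 7.20 ± 4.92, 6.65 ± 5.82 and 6.81 ± 3.91 CPM at 27, 35 and 43 °C (SD, n = 8 each). Between 43 and 35 °C its fold change on the log2 scale came to 0.05 ± 0.64 in the telencephalon (edgeR adjusted p = 0.988) and −0.37 ± 0.67 in the testis (edgeR adjusted p = 0.910). The 95% interval of the telencephalon value extended beyond 2-fold in either direction, so changes of that size were not excluded in this gene.

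More generally, the members' spread limited what these comparisons could show. Between 43 and 35 °C, 76.7% of members had a 95% interval of the fold change in the telencephalon that lay within 1.5-fold in either direction, against 95.9% of eligible genes. In the testis it was 63.3% against 83.1%. The members' median log2 fold change came to −0.02 for the telencephalon and 0.03 for the testis, beside −0.01 and 0.02 over eligible genes.

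The mean of a bird's tissues, each as log2(CPM + 0.5), was tested with limma over the 22 birds, so that each bird counted once. The deviation that both tissues share stays in this mean. The members' median SE between 43 and 35 °C was 0.155 log2 units, against 0.088 over eligible genes, and 0.139 in the telencephalon alone. The members' larger SE follows in part from the choice by r, and so do their shares below. At an adjusted p under 0.05, limma called 0 members in any of the 3 comparisons (background 0.00799% between 43 and 35 °C and 0% in the other comparisons). At an unadjusted p under 0.05 limma gave 5 members between 43 and 35 °C (3.33%, background 6.6%), 1 between 27 and 35 °C (0.667%, background 3.71%) and 12 between 43 and 27 °C (8%, background 6.75%). Of these 12, 11 were lower (7.33%, background 4.86%) and 1 higher (0.667%, background 1.89%) at 43 °C. The smallest p was that of ENSTGUG00000008777 between 43 and 27 °C, with a log2 fold change of −0.60 ± 0.16 (limma adjusted p = 0.406).

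Whether the response differed between tissues was tested as an interaction over all 46 libraries. At an adjusted p under 0.05, 0 members were called by edgeR in any of the 3 comparisons (background 0% in each). At an unadjusted p under 0.05 it gave 0 members between 43 and 35 °C (0%, background 9.97%), 0 between 27 and 35 °C (0%, background 3.39%) and 1 between 43 and 27 °C (0.667%, background 7.29%). That fit treats the tissues of a bird as separate samples. A fit with the bird as a block, which the shared bird allows, left out T138 and T143 and tested 12543 genes, against 12523 without the block. Its counts were 16 (10.7%, background 10%), 5 (3.33%, background 3.74%) and 7 (4.67%, background 6.72%), and still 0 at an adjusted p under 0.05.

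The members' standard errors were smaller with the block. This follows from the choice by r and supports nothing beyond it, since the block removes the deviation that both tissues of a bird share. The members' median SE of the difference between tissues in the response to 43 against 35 °C was 0.24 log2 units without the block and 0.14 with it, while over eligible genes it was 0.16 and 0.15. For ENSTGUG00000016724 the difference was 0.20 ± 0.38 without the block (edgeR adjusted p = 0.911) and 0.26 ± 0.09 with it (edgeR adjusted p = 0.389). In ENSTGUG00000013784 the SE fell from 0.96 to 0.25.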

How the data were processed

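RNA was sequenced from the posterior telencephalon of 24 birds and the testis of 22. The authors deposited raw counts per gene for the telencephalon. The deposited testis columns, a paired-end and a single-end one per bird, also held whole numbers throughout. The authors' testis values, deposited without normalization, were labelled estimated counts here but tested in the same way as the telencephalon counts. Being whole numbers, they were not rounded before testing. They were summed per bird. The tools named are CASAVA, Trimmomatic 0.36, HISAT2 2.1.0 and featureCounts 1.6.4, per the submitters' processing notes. Genome build, annotation and strand setting were not given in the sources used here.

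Groups and bird numbers came from the labels. Both tissues of a bird carry the same bird number, so the numbers pair the samples. Members were found and described with pandas 2.3.3 and numpy 2.4.6 in Python 3.11.15. Tests used R 4.3.3, with genes filtered by filterByExpr (minimum count 10, minimum total 15), TMM scaling and robust quasi-likelihood fits over all 3 temperature groups in edgeR 4.0.16. Bird means were tested in limma 3.58.1 (trend and robust), and DESeq2 1.42.0 was an alternative. The 95% intervals are the fold change ± 1.96 SE.

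The members, criteria and lists were chosen with earlier results of these data known. Genes are named by a rule: the 10 with the highest r, the 5 with the widest spread, the 3 with the smallest p in each comparison within a tissue, any called member, any split in both tissues and those next to the threshold. Others were chosen after their values were seen. Alternatives covered the pseudocount, scaling, filter, testis columns, bird T142, correlation measure, centring and each bird left out. Identifiers could not be matched to symbols, so gene lists and cell type markers were not run.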

Additional observations from a re-analysis of the deposited data

Results flagged for a closer look

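In 13 of 174 groups of birds (29 named members, in each tissue and temperature), 1 bird stood further from the others than Dixon's 95% limit allows. Chance alone would set a bird apart in about 1 in 20 groups, or 8.7 here. That figure is a rough guide only. The groups are not independent, since these genes track between tissues, and some genes were named for their wide spread. Values are CPM, with the range of the other birds of the group.

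Low birds made up 9 of the 13. ENSTGUG00000013784 was 0.904 in the telencephalon (others 5.14 to 14.8) and 1.21 in the testis (others 5.65 to 12.2) of T153 at 43 °C. ENSTGUG00000014474 was 33.4 in the telencephalon (others 51.2 to 69.9) and 17.99 in the testis (others 30.1 to 42.6) of T144 at 43 °C, and 21.6 in the telencephalon of T159 at 27 °C (others 52.7 to 76.7). ENSTGUG00000004197 was 12.5 in the telencephalon (others 22.6 to 37.4) and 5.00 in the testis (others 11.2 to 18.2) of T159 at 27 °C. ENSTGUG00000013987 was 7.03 in the testis of T142 at 27 °C (others 13.9 to 22.3), and ENSTGUG00000000742 was 17.3 in the testis of T155 at 27 °C (others 27.8 to 37.1).

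The other 4 were high birds. ENSTGUG00000009626 was 45.3 in the telencephalon of T141 at 43 °C (others 3.04 to 9.37). ENSTGUG00000000313 was 214 in the testis of T147 at 35 °C (others 100.4 to 140.3). ENSTGUG00000016447 was 43.2 in the telencephalon of T157 at 35 °C (others 16.8 to 24.9), and ENSTGUG00000000395 was 370.2 in the telencephalon of T140 at 35 °C (others 207 to 262). In 3 genes the same bird stood apart in both tissues of its group, which follows in part from the choice by r.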

How the results depend on the processing

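Of the 150 members, all but 2 were kept with a pseudocount of 2, 127 with TMM scaling, 115 with the paired-end column alone, 128 with the single-end column alone, 132 without T142, 111 with Spearman's correlation and 129 with temperature groups kept in the deviations. Leaving out each of the 22 birds in turn kept 88% to 92.7%. The first 10 members stayed among the 150 under each of these. Members with split levels in both tissues went from 0 to 2 with the paired-end column alone and to 2 with the gap eased to 1.2 SDs (chosen after the data were seen). Those in the testis went from 3 to 5 with the single-end column alone, to 5 with the eased gap, and to 0 with a gap of 1 log2 unit, a gap of 3 SDs or deviations in place of levels. Linked pairs went from 1 to 2 with a pseudocount of 2, TMM scaling or the paired-end column alone, and to 9 at r of at least 0.7 (chosen after the data were seen).

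Members with an unadjusted p under 0.05 between 27 and 35 °C went from 4 to 2 in the telencephalon without T142 and to 7 with the compared groups only, and from 1 to 3 for bird means with TMM scaling or without T142. Called members between 43 and 27 °C in the telencephalon went from 0 to 1 with DESeq2. With the replicate block (bird), the pairing that the labels give, unadjusted counts of the difference between tissues went from 0 to 16, 0 to 5 and 1 to 7, and the block changed no call. Of 90 alternatives for 18 log2 fold changes of named genes, 89 kept direction and side of the threshold, 1 passed it (ENSTGUG00000008777 with DESeq2) and 0 reversed. The cause of these shifts was not tested. Depth limits the low genes: the leading gene had 2 to 11 telencephalon counts in its low birds. Intervals are for the difference between group means, with an error that rests on the spread between birds.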
